A study of Homo sapiens with 10 samples.

Results

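The genes examined here are the G1 cyclins, the cyclin-dependent kinases (CDKs) they activate and the inhibitors of those kinases: CCND1, CCND2, CCND3, CCNE1, CDK2, CDK4, CDK6, CDKN1A, CDKN1B and CDKN2C. A probe set is a group of array probes read together as 1 value for a transcript. Probe sets were taken wherever the platform annotation names a single gene and that gene is on this list. This gave 18 of the 12558 probe sets that are not controls, for 9 of the 10 genes. CDKN2C had no such probe set, so only the sequence around its transcript starts was examined. The arrays measured total RNA from ST486, an established cell line of human Burkitt's lymphoma. At the time of harvest, 60 h had passed since a lentivirus had delivered a short hairpin RNA (shRNA) against STK38 (5 arrays) or a non-target shRNA as control (5 arrays). STK38 is a protein kinase of the NDR family, and the series title ties it to the activity of MYC, the transcription factor that Burkitt's lymphoma overproduces through a translocation. All arrays thus carry a lentiviral vector and a hairpin, and the labels name 1 hairpin against STK38, so effects of its other possible targets and effects of STK38 loss cannot be told apart.

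In G1, D-type cyclins (CCND1, CCND2, CCND3) bind CDK4 or CDK6 and start the phosphorylation of the retinoblastoma protein, and cyclin E (CCNE1) with CDK2 completes it, which frees E2F factors to switch on the genes of S phase. Inhibitors oppose this: the CIP/KIP proteins p21 (CDKN1A) and p27 (CDKN1B) act mainly on CDK2 complexes, and INK4 proteins such as p18 (CDKN2C) act on CDK4 and CDK6. MYC is known as an activator of CDK4 and as a repressor of CDKN1A, and cyclin D3 is the D-type cyclin that germinal centre B cells, the normal counterpart of Burkitt's lymphoma, depend on.

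STK38 mRNA was lower on all STK38 shRNA arrays, as was MYC mRNA. At its brightest probe set, STK38 stood at 2.95, 2.90, 2.95, 2.46 and 2.88 with the STK38 shRNA and at 5.24, 4.80, 4.85, 4.92 and 5.28 with the control (log2 expression, replicates 1 to 5; a difference of 1 on this scale is 2-fold). MYC averaged 7.30 ± 0.34 with the STK38 shRNA and 8.68 ± 0.25 with the control (SD, n = 5 each), a log2 difference of -1.38. Array medians lay between 2.12 and 2.25. The 75th percentile of the values was 3.535 on STK38 shRNA replicate 4 and between 3.909 and 4.015 on the other arrays. STK38 shRNA replicate 4 stood apart, with a mean correlation of 0.982 with its group where the others had 0.992 or more, so results that rest on it are given with and without it. Of 5 measured B cell markers, 4 were above background on every array; PAX5 was above it on none. The 5 T cell and 2 erythroid markers were above background on no array. The array background, the level below which a signal was taken as not measured, ran from 2.36 to 2.66 on the log2 scale.

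With all arrays, the calls among these genes came from CCNE1 and CDK2 alone. Of the 18 probe sets, 12, for 7 genes, were bright enough to be tested, and 2 of them, 1 of CCNE1 and 1 of CDK2, were called, both lower with the STK38 shRNA (limma, a linear model fitted to all probe sets, with a Benjamini-Hochberg adjusted p under 0.05). No probe set was called higher in limma; 1, that of CDKN1A, was higher at an unadjusted p under 0.05. The 2 called are 16.7% of the 12 tested, beside 29.9% of all 7535 probe sets tested (14.1% higher and 15.8% lower). With 12 probe sets, the gap between these shares is too small to read as a trait of these genes. The median size of the log2 difference was 0.19 over these 12 and 0.18 over all probe sets tested. Without STK38 shRNA replicate 4, 4 of the 12 were called, 3 lower and 1 higher, beside 37.4% of all probe sets (16.8% lower and 20.5% higher). In these whole cultures a change in the share of cells in a phase of the cell cycle and a change in RNA per cell cannot be told apart, and the labels do not say whether arrays came from separate cultures, so the spread behind each p-value may be technical.

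**Figure D1:**
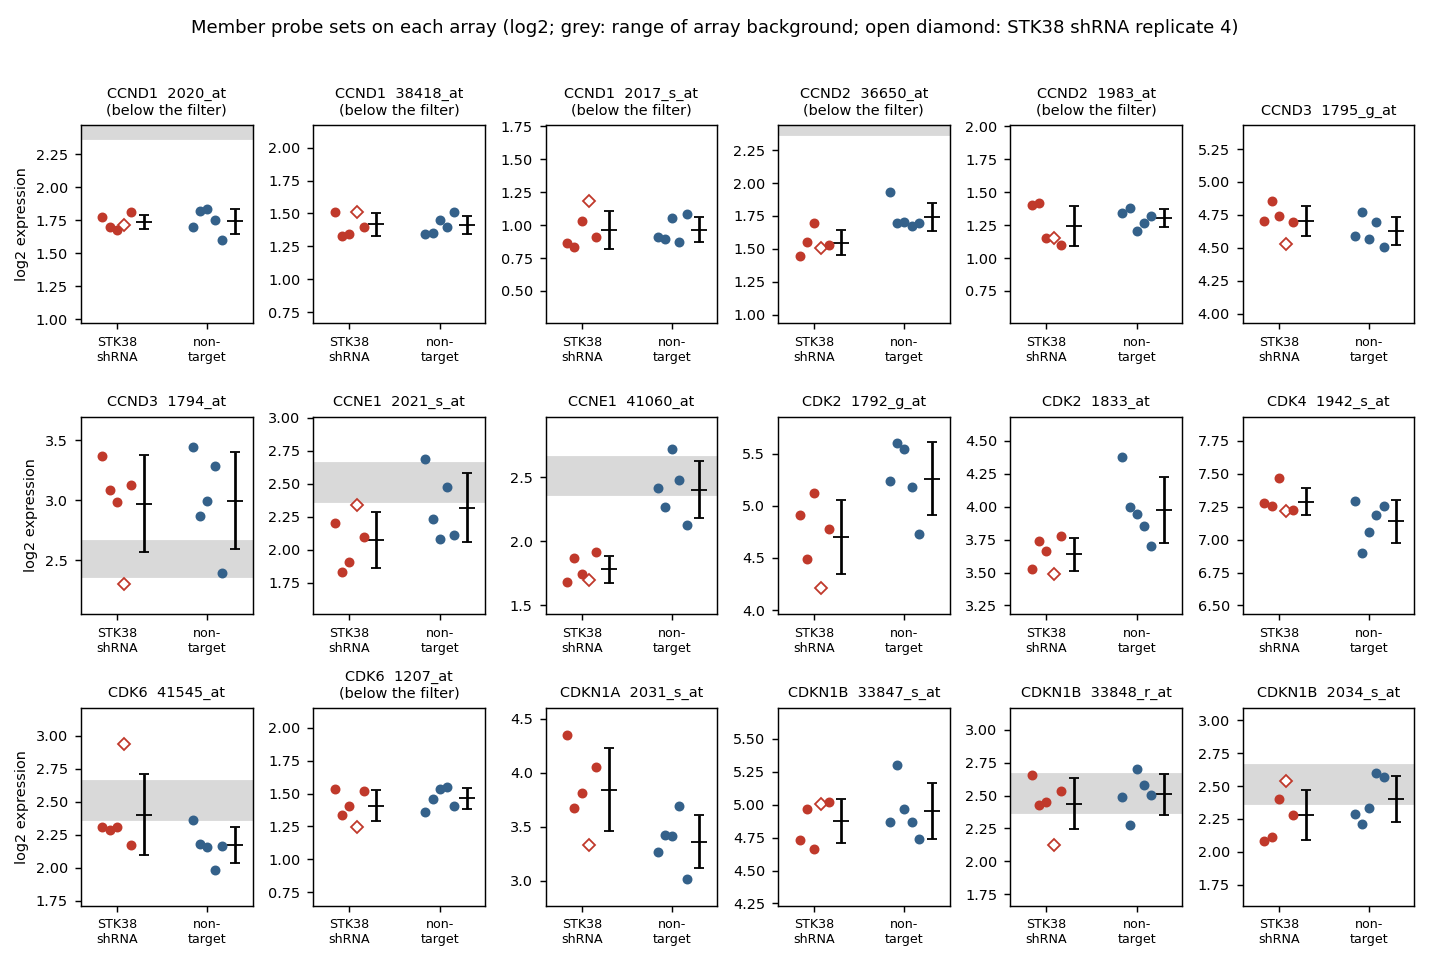
Log2 expression of the 18 probe sets on each array, STK38 shRNA left and non-target shRNA right, with the group mean and SD (n = 5) beside the points; the grey band is the range of the array background and the open diamond is STK38 shRNA replicate 4. The groups separate fully at CCNE1 probe set 41060_at, and CCND1 and CCND2 lie below the band on every array.

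Among the D-type cyclins, CCND3 was measured and CCND1 and CCND2 were not above background. CCND3, on chromosome 6, was at 4.70, 4.85, 4.74, 4.53 and 4.70 with the STK38 shRNA and at 4.59, 4.77, 4.57, 4.69 and 4.51 with the control at its brighter probe set, 1795_g_at. The groups overlapped, with 4 of the 5 STK38 shRNA arrays above the control mean. The difference was 0.080 on the log2 scale (95% interval -0.15 to 0.31, limma adjusted p = 0.663). The other CCND3 probe set, 1794_at, averaged 2.97 ± 0.40 with the STK38 shRNA and 3.00 ± 0.41 with the control (SD, n = 5 each). Its difference of -0.026 (95% interval -0.48 to 0.42, limma adjusted p = 0.951) had a positive sign, 0.14, without STK38 shRNA replicate 4, which read 2.30 there and was the only array of its group under background.

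CCND1, the cyclin D1 gene on chromosome 11 that is translocated in mantle cell lymphoma, had 3 probe sets, and CCND2, the cyclin D2 gene on chromosome 12, had 2. None was above background on any array, and all 5 lay under the filter on dim probe sets (1.93) and had no test in the main comparison. At the brightest CCND1 probe set the arrays read 1.78, 1.70, 1.68, 1.72 and 1.81 with the STK38 shRNA and 1.70, 1.82, 1.84, 1.75 and 1.60 with the control. The brighter CCND2 probe set, 36650_at, read 1.45, 1.55, 1.70, 1.51 and 1.53 with the STK38 shRNA and 1.93, 1.70, 1.71, 1.68 and 1.69 with the control. All 5 STK38 shRNA arrays were thus below the control mean there, and 4 of them below every control array. With no filter, where 17.0% of probe sets were called, its log2 difference was -0.20 (limma adjusted p = 0.0799; two-sided exact permutation p = 0.0317) and was not called; since both groups lie under background, no fold is given.

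Cyclin E1 and its kinase were lower with the STK38 shRNA, though CCNE1 was dim. CCNE1, on chromosome 19, read 1.68, 1.87, 1.75, 1.70 and 1.92 with the STK38 shRNA and 2.42, 2.27, 2.72, 2.48 and 2.13 with the control at probe set 41060_at. Every STK38 shRNA array was below every control array, the only probe set of the 18 at which the groups did not overlap; over all probe sets tested they did not overlap at 22.1%, and the STK38 shRNA arrays were the lower ones at 12.8%. The log2 difference was -0.62 (SE 0.10, limma adjusted p = 0.000333), with a two-sided exact permutation p of 0.00794, the smallest that 5 against 5 arrays allow. The signal exceeded background on 0 arrays with the STK38 shRNA and on 2 with the control, and the control mean did not exceed the background averaged over the 5 STK38 shRNA arrays, though it exceeded that of replicates 2, 3 and 5, so no fold is given.

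The other CCNE1 probe set, 2021_s_at, read 2.20, 1.83, 1.90, 2.34 and 2.09 with the STK38 shRNA and 2.69, 2.23, 2.08, 2.48 and 2.11 with the control. The groups overlapped, and the log2 difference of -0.25 (SE 0.13) was not called, with a limma adjusted p of 0.184. Without STK38 shRNA replicate 4, the highest array of its group, the difference was -0.31 and was called (limma adjusted p = 0.0451). It likewise exceeded background on 0 arrays with the STK38 shRNA and on 2 with the control, or, with a lower background set without the reverse-strand controls of human genes, on 3 with the STK38 shRNA and 5 with the control.

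CDK2, the kinase partner of cyclin E on chromosome 12, was above background on all arrays at both of its probe sets. The brighter, 1792_g_at, read 4.91, 4.49, 5.12, 4.21 and 4.78 with the STK38 shRNA and 5.24, 5.60, 5.55, 5.18 and 4.73 with the control. All 5 STK38 shRNA arrays were below the control mean, 2 of them below every control array, and control replicate 5 lay within the STK38 shRNA range. CDK2 fell 1.47-fold at this probe set (log2 difference -0.56, SE 0.19, limma adjusted p = 0.0371; two-sided exact permutation p = 0.0476). The call was lost when any one of 6 arrays was left out, STK38 shRNA replicate 2 or 5 or control replicate 1, 2, 3 or 4, with adjusted p-values up to 0.0995; without STK38 shRNA replicate 4 it held, with a log2 difference of -0.44 (limma adjusted p = 0.0460).

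At the dimmer CDK2 probe set, 1833_at, the arrays read 3.53, 3.74, 3.66, 3.49 and 3.78 with the STK38 shRNA and 4.38, 4.00, 3.95, 3.85 and 3.71 with the control. Again all 5 STK38 shRNA arrays were below the control mean, and 3 were below every control array. The log2 difference was -0.34 (SE 0.14), with the same sign as at the brighter probe set, and missed the threshold with a limma adjusted p of 0.0806 (two-sided exact permutation p = 0.0238). It passed only when control replicate 5 was left out, at -0.40 (limma adjusted p = 0.0449).

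**Figure D2:**
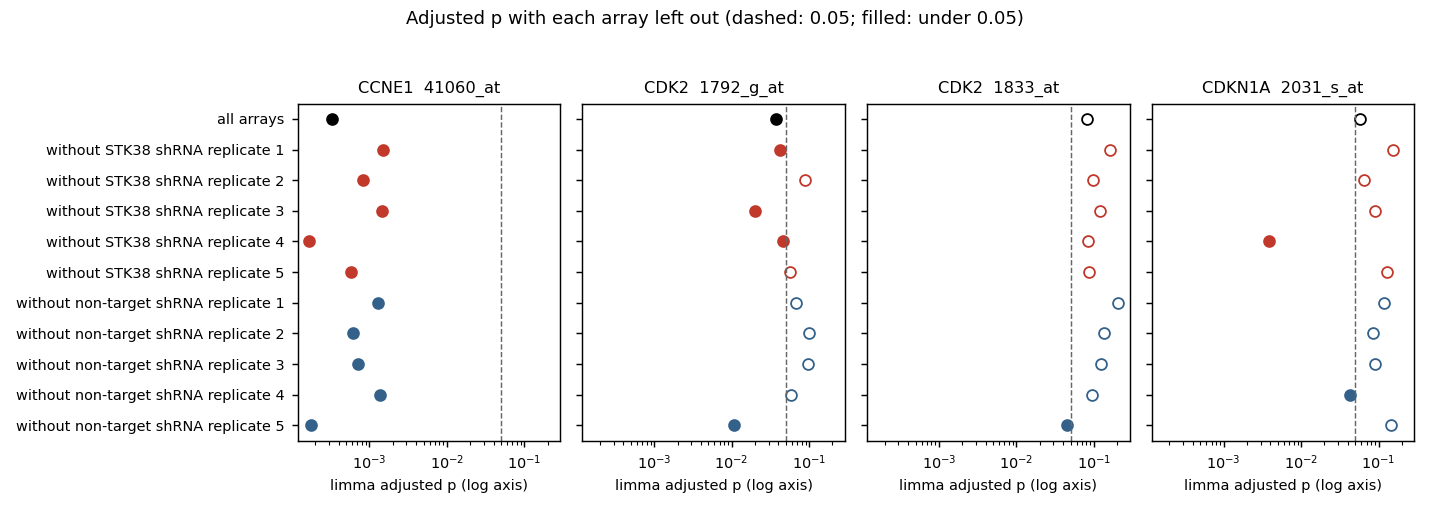
Limma adjusted p (log axis) of 4 probe sets with all arrays and with each array left out in turn; filled points are under 0.05, the dashed line. CCNE1 at 41060_at stays under 0.05 throughout, CDK2 at 1792_g_at in 4 of the 10 fits, and CDKN1A in 2 of the 10, without STK38 shRNA replicate 4 or control replicate 4.

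CDK4, on chromosome 12, did not pass the test. Its single probe set, 1942_s_at, read 7.28, 7.25, 7.47, 7.22 and 7.22 with the STK38 shRNA and 7.29, 6.90, 7.06, 7.19 and 7.26 with the control. All 5 STK38 shRNA arrays were above the control mean, and 1 was above every control array. The log2 difference was 0.15 (SE 0.094, 95% interval -0.050 to 0.35, limma adjusted p = 0.273). With all arrays, the interval leaves out a fall of more than 0.050 on the log2 scale. With single arrays left out, the difference ran from 0.091 to 0.19 and was never called. Any link between CDK4 and the fall of MYC was not tested.

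Because CDK4 is a textbook target of MYC through E-boxes, the sequence before its start is shown. The sequence before the start of CCNE1, which like CDK2 had a probe set called lower, is given beside it. Each runs over the 250 bases before the RefSeq transcript start in GRCh38.p14, 5′ to 3′ on the gene's strand, with E-boxes (CACGTG, the site MYC binds with MAX, which reads the same on both strands) in capitals. CDK4 lies on the minus strand at chr12:57752311-57752560 and CCNE1 on the plus strand at chr19:29811741-29811990.
CDK4: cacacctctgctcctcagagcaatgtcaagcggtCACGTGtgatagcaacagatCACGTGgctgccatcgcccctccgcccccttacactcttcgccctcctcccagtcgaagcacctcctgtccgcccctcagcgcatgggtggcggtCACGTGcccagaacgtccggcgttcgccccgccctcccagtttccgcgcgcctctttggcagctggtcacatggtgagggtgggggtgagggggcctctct
CCNE1: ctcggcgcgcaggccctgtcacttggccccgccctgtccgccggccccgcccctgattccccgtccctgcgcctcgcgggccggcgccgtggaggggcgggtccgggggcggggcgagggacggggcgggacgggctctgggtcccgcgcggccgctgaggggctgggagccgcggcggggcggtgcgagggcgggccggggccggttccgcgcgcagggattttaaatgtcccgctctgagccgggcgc
The CDK4 stretch holds 3 E-boxes, whose first bases lie 216, 196 and 101 bases before the start, and the CCNE1 stretch holds none. Of 35116 RefSeq promoter windows of 300 bases (250 before and 50 after the start), 7.26% hold at least 1 E-box and 0.664% hold 2 or more. RefSeq windows were given for 7 of the 10 genes, 12 windows in all, and not for CCND1, CCND2 or CDK2. Of the 12 windows, 4 held an E-box: the CDK4 window, 1 of CDK6 and 2 of CDKN2C. A search of the same windows for the E2F motif letters TTCGCGC or TTGGCGC, on both strands, found 0 matches in the 12, against 5.06% of all windows. Other forms of the motif were not searched, and 12 windows are too few to set 0 apart from 5.06%. These matches describe letters and were not tested for binding.

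CDK6, on chromosome 7, was near background, and its highest value came from a single array. Probe set 41545_at read 2.31, 2.29, 2.31, 2.94 and 2.17 with the STK38 shRNA and 2.36, 2.18, 2.16, 1.98 and 2.16 with the control. Only STK38 shRNA replicate 4 was above background, although with a lower background, set without the reverse-strand controls of human genes, all 10 arrays were. The log2 difference was 0.23 (limma adjusted p = 0.213) and 0.10 without that array (limma adjusted p = 0.379). Some dim signals were high on that array and others were low. Its median, 2.25, was the highest of the 10, and its background, 2.65, was the highest of its group. The mean log2 value of each of 4 marker lists was also highest there. For 6 epithelial markers it was 2.68, against 2.30 to 2.46 on the other STK38 shRNA arrays and 2.24 to 2.46 on the control arrays. For 6 fibroblast and endothelial markers it was 2.095, against 1.805 to 1.923 on the other STK38 shRNA arrays and 1.805 to 1.852 on the control arrays. For 5 monocyte markers it was 2.093, against at most 1.958 on the other STK38 shRNA arrays and 1.982 on the control arrays, and for 5 T cell markers 1.657, against at most 1.539 on the other STK38 shRNA arrays and 1.596 on the control arrays. Of these 22 markers only KRT8, an epithelial keratin, was above background on every array, and its value on replicate 4, 3.87, was the lowest of its group (others 3.92 to 4.37). The 2 erythroid markers averaged 1.602 there, against 1.588 to 1.859 on the other STK38 shRNA arrays and 1.712 to 1.811 on the control arrays. CCND3 at 1794_at (2.30), CDKN1B at 33848_r_at (2.13) and CDK6 at 1207_at (1.25) were lowest of the 10 arrays there. CCND1 at 38418_at (1.511) and at 2017_s_at (1.181) was highest there. The part of these signals in the CDK6 value was not tested. The second CDK6 probe set, 1207_at, was above background on no array and averaged 1.41 ± 0.12 with the STK38 shRNA and 1.46 ± 0.080 with the control (SD, n = 5 each).

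CDKN1A, which encodes p21 on chromosome 6, had higher values with the STK38 shRNA, and its call depended on the arrays used. It read 4.35, 3.67, 3.81, 3.33 and 4.05 with the STK38 shRNA and 3.26, 3.42, 3.41, 3.69 and 3.02 with the control at its only probe set, 2031_s_at. Of the STK38 shRNA arrays, 4 of 5 were above the control mean and 3 above every control array, while replicate 4 lay within the control range. With all arrays the log2 difference was 0.48 (SE 0.18, 95% interval 0.096 to 0.87), with a limma adjusted p of 0.0580, just over the threshold, and a two-sided exact permutation p of 0.0556. Without STK38 shRNA replicate 4 the difference was 0.61, or 1.52-fold, and was called (limma adjusted p = 0.00384). Every array was above background here.

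CDKN1B, which encodes p27 on chromosome 12, did not pass the test at any of its 3 probe sets. The brightest, 33847_s_at, read 4.73, 4.97, 4.67, 5.00 and 5.02 with the STK38 shRNA and 4.87, 5.30, 4.97, 4.87 and 4.74 with the control. The groups overlapped over most of their range, and the log2 difference was -0.072 (95% interval -0.35 to 0.20, limma adjusted p = 0.750). The others differed by -0.070 and -0.12 (limma adjusted p = 0.718 and 0.494). Probe set 33848_r_at exceeded background on 4 arrays with the STK38 shRNA and 3 with the control, and 2034_s_at on 0 with the STK38 shRNA and 1 with the control; with the lower background 2034_s_at exceeded it on all 10 arrays.

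**Figure D3:**
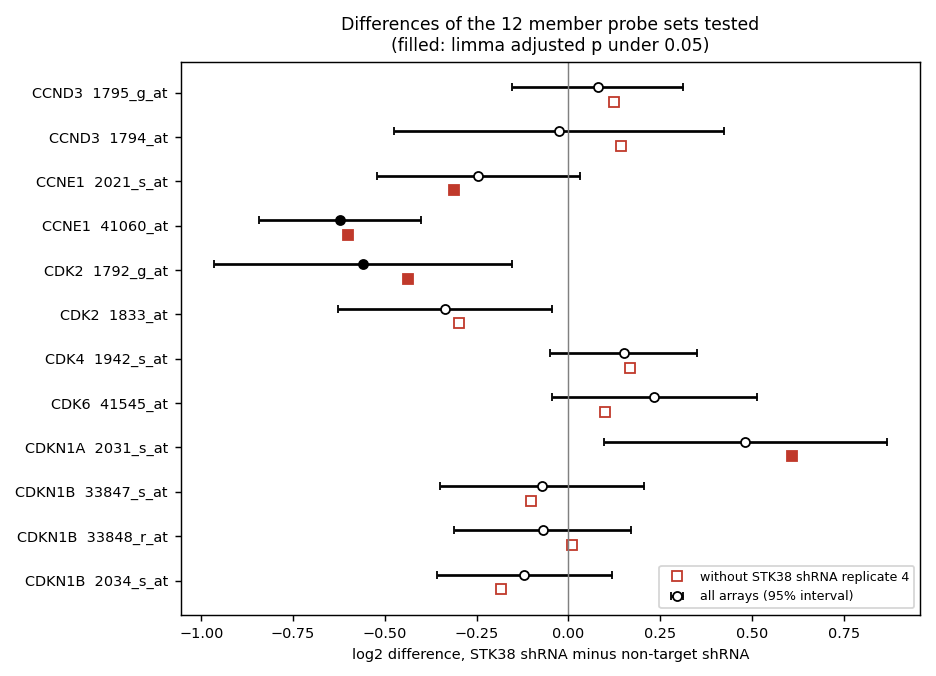
Log2 difference, STK38 shRNA minus non-target shRNA, of the 12 probe sets tested: circles are all arrays with the 95% interval, squares are without STK38 shRNA replicate 4, and filled symbols have a limma adjusted p under 0.05. CCNE1 (-0.62) and CDK2 (-0.56) are filled on the left with all arrays, and CDKN1A moves between 0.48 and 0.61.

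Around these genes, 7 lists of related genes, not all from the G1 and S phase control system, together changed about as often as genes in general. In these lists, compiled from general knowledge, 63 of 75 genes were tested at their brightest probe set, and 8 rose and 12 fell, or 31.7%, beside 31.0% of all 5403 genes. Without STK38 shRNA replicate 4, 11 rose and 12 fell, or 36.5%, beside 38.6% of all genes. The list of transcriptional and atypical CDKs and cyclins lies outside that control system. With all arrays, it gave 15 of the 63 tested genes, 5 of the 8 that rose and 3 of the 12 that fell. The share called in the remaining lists was not compared with that of all genes. Of 9 tested genes of the E2F, DP and pocket protein list, 0 rose and 2 fell, with a median log2 difference of -0.059 beside 0.019 for all genes. They were TFDP2 and TFDP1, the DP partners that E2F proteins need to bind DNA. TFDP2 averaged 6.76 ± 0.072 with the STK38 shRNA and 7.97 ± 0.14 with the control (SD, n = 5 each), a 2.32-fold fall (limma adjusted p = 1.01e-07), and TFDP1 fell 1.51-fold (limma adjusted p = 0.00142). No E2F gene and no pocket protein gene passed at its brightest probe set. E2F4 averaged 5.61 with the STK38 shRNA (5.78 without replicate 4) and 5.67 with the control. E2F1 was above background on no array. RB1, the retinoblastoma gene, was called at no tested probe set with all arrays. Without STK38 shRNA replicate 4 it was called higher at 1571_f_at (log2 difference 0.49, limma adjusted p = 0.00966) and 1905_s_at (0.32, limma adjusted p = 0.0309). It was then not called at its brightest, 1672_f_at, or at 2044_s_at (limma adjusted p = 0.674 and 0.129).

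In the list of S phase and mitotic cyclins with CDK1, 1 of 6 tested genes rose and 1 fell, with a median of 0.056. CCNE2, the second cyclin E gene, averaged 4.74 ± 0.34 with the STK38 shRNA and 5.49 ± 0.31 with the control (SD, n = 5 each) and was above background on every array. It fell 1.67-fold (log2 difference -0.74, SE 0.18, limma adjusted p = 0.00504), so both cyclin E genes had a called probe set. CDK1, the mitotic kinase, rose by 0.32 at its brightest probe set (limma adjusted p = 0.0346), but its other probe sets differed by 0.052 and 0.017. CCNA2, the cyclin that binds CDK2 after cyclin E, averaged 7.59 with the STK38 shRNA and 7.57 with the control (limma adjusted p = 0.876). CCNF and CCNB1 were not called at their brightest probe sets (limma adjusted p = 0.173 and 0.440). At dimmer probe sets, CCNF was lower at 1925_at (-0.33, limma adjusted p = 0.0183) and CCNB1 higher at 34736_at (0.29, limma adjusted p = 0.0452).

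Among 9 tested kinases and phosphatases that switch CDKs on or off, 0 rose and 2 fell (median -0.21). PKMYT1, a kinase that inhibits CDK1, fell 1.46-fold at its brightest probe set (limma adjusted p = 0.00522), and CDKN3, a phosphatase that acts on CDKs, fell 1.37-fold (limma adjusted p = 0.00243). WEE1, another kinase of this list, was not called at its brightest probe set (log2 difference -0.30, limma adjusted p = 0.118). At its dimmer probe set, 2033_s_at, WEE1 fell 1.83-fold (limma adjusted p = 0.00182). Without STK38 shRNA replicate 4, 1 gene of this list rose: CDC25B, a phosphatase that activates CDKs, by 0.72 on the log2 scale (limma adjusted p = 0.000150), against 0.47 with all arrays (limma adjusted p = 0.150). The other INK4 and CIP/KIP inhibitors gave 2 tested genes of 4, and neither passed in limma at an adjusted or an unadjusted p under 0.05. CDKN2A averaged 4.18 with the STK38 shRNA and 4.40 with the control. Without STK38 shRNA replicate 4, which read 3.23, its STK38 shRNA mean was 4.42 and the log2 difference 0.019. CDKN2D was above background on no array; 4 of its 5 STK38 shRNA arrays were above every control array at its brighter probe set (log2 difference 0.13, limma adjusted p = 0.202; two-sided exact permutation p = 0.0159). CDKN1C and CDKN2B were under the filter.

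The list of ubiquitin ligase parts that act on G1 regulators also held genes of other proteins, such as COPS5 and CKS2. Of its 9 tested genes, 1 rose and 2 fell (median -0.13). CUL1, the scaffold of the SCF ligase that marks cyclin E and p27 for destruction, fell 1.45-fold (limma adjusted p = 0.00301). COPS5, a subunit of the COP9 signalosome, fell 1.32-fold (limma adjusted p = 0.00703), and CKS2, a small CDK-binding protein, rose 1.23-fold (limma adjusted p = 0.00127). DDB1, an adaptor of CUL4 ligases, was called higher without STK38 shRNA replicate 4, by 0.33 on the log2 scale (limma adjusted p = 0.00643), but not with all arrays, where it differed by 0.24 (limma adjusted p = 0.116). SKP2, the SCF subunit that recognises p27, averaged 3.86 with the STK38 shRNA and 3.72 with the control and did not pass (limma adjusted p = 0.475). SKP1 was not called at its brightest probe set (log2 difference 0.18, limma adjusted p = 0.0793). At its dimmer probe set, 41759_at, SKP1 rose by 0.40 (limma adjusted p = 0.00726).

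Of 13 tested upstream regulators, 1 rose and 2 fell (median 0.026). Besides MYC, FOXO1 fell 1.74-fold (log2 difference -0.80, SE 0.20, limma adjusted p = 0.00767), while FOXO3 rose 1.47-fold (log2 difference 0.56, SE 0.15, limma adjusted p = 0.0109); both encode forkhead factors known to activate CDKN1B. ZBTB17, through which MYC represses CDKN1A, averaged 3.93 with the STK38 shRNA and 4.00 with the control (limma adjusted p = 0.768).

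**Figure D4:**
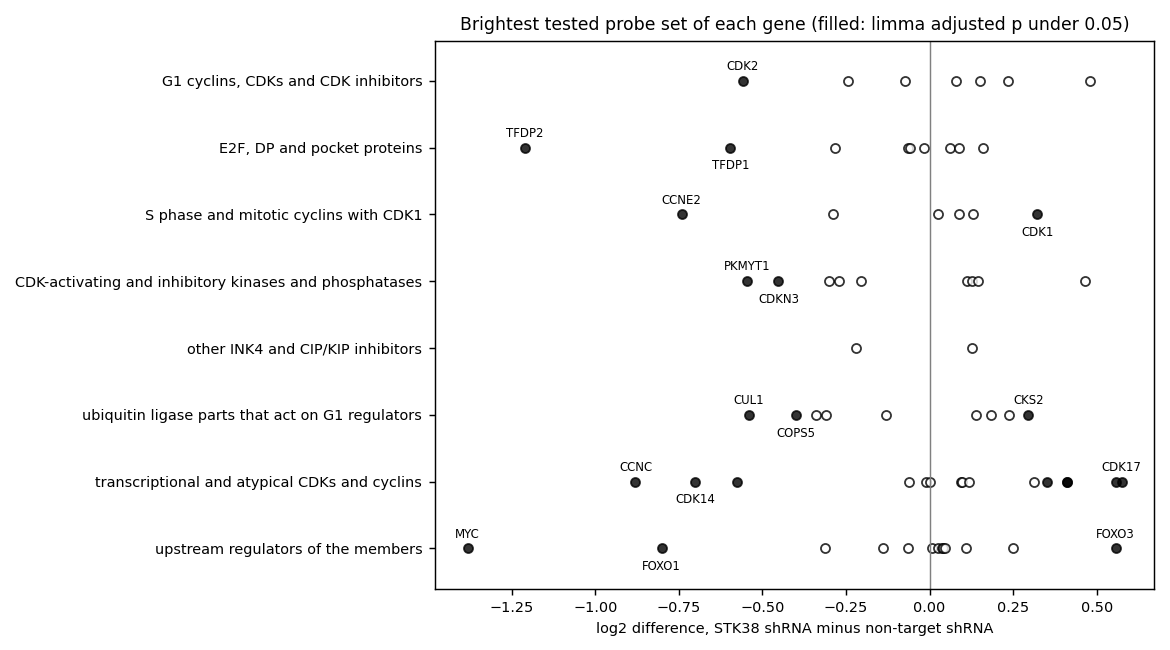
Log2 difference, STK38 shRNA minus non-target shRNA, of each tested gene at its brightest probe set, with the G1 cyclins, CDKs and inhibitors in the top row and 7 lists of related genes under it; filled points have a limma adjusted p under 0.05. MYC (-1.38) and TFDP2 (-1.21) lie farthest left, beyond every gene of the top row.

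The genes whose values most resembled those of CCND3 and CDK4 across the 10 arrays were found by Pearson correlation, which includes the difference between groups and array effects and is given without a test. For CCND3 these were SNAPC2 (0.923), LRRC41 (0.920) and TUBGCP3 (0.908). For CDK4 they were RPS28 (0.921), FOXN3 (0.898) and XRCC1 (0.896). None of these 6 genes was called different between the groups (limma adjusted p between 0.121 and 0.553).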

How the data were processed

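The authors deposited log2 expression values for 12625 probe sets of the Affymetrix HG-U95Av2 array, 1 value for each of 10 arrays; per the submitters' processing notes the tools were GCRMA and affy, without versions. GCRMA models background from probe sequences, normalizes the arrays together and gives 1 log2 value per probe set, a scale read here from the values and the tool, and it shrinks differences of dim probe sets. The deposited values were used unscaled. Groups came from the labels. The 67 control probe sets were left out, and 10943 of the 12558 others had 1 gene in the platform annotation (545 had several, 1070 none); symbols were updated through Entrez identifiers to GRCh38.p14 RefSeq. Probe sets with a mean under the 40th percentile (1.93) were not tested, leaving 7535.

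Groups were compared with limma 3.58.1 in R 4.3.3 (eBayes with trend, no covariate, Benjamini-Hochberg adjustment over all probe sets tested, threshold 0.05), and single probe sets also with a two-sided exact permutation test (scipy 1.17.1). The procedure was tested on simulated data. Background was the 90th percentile of 23 mouse, yeast and reverse-strand control probe sets on each array. The number of arrays limits precision. The 10 genes and the related lists were chosen with earlier results of these data known. Named were all probe sets of the 10 genes, STK38, MYC, up to 3 called genes per list with the largest change, and the 3 genes most correlated with CCND3 and with CDK4. E2F1, E2F4, RB1, CCNA2, CCNB1, CCNF, CDKN2A, CDKN2D, CDKN1C, CDKN2B, SKP1, SKP2, WEE1, ZBTB17, CDC25B, DDB1, KRT8 and PAX5 were named after their values were seen. Alternatives covered scaling, weighting of arrays, the filter, eBayes settings, the threshold, a replicate block, the choice of probe set, the background and leaving out each array.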

Additional observations from a re-analysis of the deposited data

Results flagged for a closer look

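In 6 of 68 groups of 5 arrays examined (34 probe sets), the highest or lowest array lay far from the others by Dixon's criterion, where chance gives about 1 in 20. CCND2 at 36650_at read 1.93 on control replicate 1, where the other control arrays read 1.68 to 1.71; all lie under background. CDK4 read 7.47 on STK38 shRNA replicate 3, against 7.22 to 7.28 on the rest of its group. CDK6 at 41545_at read 2.94 on STK38 shRNA replicate 4, against 2.17 to 2.31 on the others. STK38 itself was lowest on that array, 2.46, where the others read 2.88 to 2.95. PKMYT1 read 4.15 on control replicate 5 (others 3.89 to 3.94), and CCNC read 4.88 there (others 5.16 to 5.22).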

How the results depend on the processing

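The call of CCNE1 at 41060_at held under all 17 alternatives that gave it a value (it lay under the 60th percentile filter), with log2 differences of -0.69 to -0.54. Set without the reverse-strand controls of human genes, the background was lower. This probe set then exceeded it on 0 arrays with the STK38 shRNA and on all 5 with the control. With that background only, group means give at least 1.28-fold lower. The other CCNE1 probe set, 2021_s_at, exceeded the lower background on 3 STK38 shRNA arrays, so no such bound applies there. CDK2 at 1792_g_at kept its direction (-0.69 to -0.44 with single arrays left out) but was not called without the filter (-0.56, adjusted p = 0.0567). CDKN1A (0.35 to 0.61 with single arrays left out) was called with the 60th percentile filter (0.48, adjusted p = 0.0435), array weights (0.55, 0.00482) and quantile normalization (0.50, 0.0190). With single arrays left out, CCNE1 at 2021_s_at ran from -0.31 to -0.15, CDK2 at 1833_at from -0.40 to -0.24, CCND3 at 1794_at from -0.18 to 0.14 (0.080 with array weights), and CDKN1B from -0.12 to 0.016 at 33847_s_at and from -0.13 to 0.0090 at 33848_r_at; the causes were not tested. Of the 12 probe sets tested, 1 to 4 were called with single arrays left out (0 to 1 higher, 1 to 3 lower), 1 without the filter (lower), 1 at a threshold of 0.01 (lower), 1 higher with array weights or quantile normalization, and 1 higher and 1 lower with the 60th percentile filter. Over the whole array, 1494 probe sets were called at 0.01 (650 higher) against 2256, and 1619 were higher with array weights against 1064. In the related lists 13 genes rose with array weights or quantile normalization and 4 at 0.01, against 8. A pairing of the arrays by replicate number was not seen in the values, which cannot exclude a paired design. Same-number correlations of deviations ran from -0.21 to 0.19, and 1 of 5 STK38 shRNA arrays was closest to its own number. With the replicate block 2159 probe sets were called, 2 of the 12 here, the same count as without it. Signals near background limit CCNE1, CDK6 and part of CDKN1B.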

Other observations

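Cyclins and CDKs outside the G1 machinery, those of transcription and the atypical ones, changed in both directions: of 15 tested genes 5 rose and 3 fell (median log2 difference 0.096), beside 31.0% called of all genes; without STK38 shRNA replicate 4, 6 rose and 3 fell. CCNC, the cyclin of the Mediator kinase CDK8, averaged 4.26 ± 0.16 with the STK38 shRNA and 5.14 ± 0.15 with the control (SD, n = 5 each) and fell 1.84-fold (limma adjusted p = 5.72e-05). CDK14, an atypical CDK, fell 1.63-fold (limma adjusted p = 0.00483). CDK17 exceeded background at 39873_at on 4 arrays with the STK38 shRNA and on 0 with the control and was at least 1.21-fold higher there (limma adjusted p = 0.0117); with a lower background, set without the reverse-strand controls of human genes, 39873_at exceeded it on 5 arrays with the STK38 shRNA and on 4 with the control, where no such bound applies. Its other probe set, 1222_at, exceeded background on 2 arrays with the STK38 shRNA and on 1 with the control and differed by 0.15 on the log2 scale, which was not called (limma adjusted p = 0.203).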
